A study of Mus musculus with 8 samples.

Results

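The genes described here are the 4 signalling receptors for fibroblast growth factors (Fgfr1, Fgfr2, Fgfr3 and Fgfr4), the co-receptor beta-Klotho (Klb), the hormone-like ligand Fgf21, and 4 inhibitors that the pathway induces against itself (Spry1, Spry2, Spry4 and Dusp6). They were taken by name as every probe set annotated to 1 of these 10 symbols alone, which gave 24 of the 45101 probe sets on each array, and 10 of the 18193 genes with such a probe set. The 8 Affymetrix arrays fall into a control and a Bmi1 group of 4, each numbered 1 to 4 in the labels. All cells were Dlk-positive hepatoblasts, the shared precursors of hepatocytes and bile duct cells, from the fetal liver (embryonic day 14.5) of mice null for Ink4a-Arf. The cells were sorted on magnetic beads and transduced 12 to 18 h later with EGFP (labelled control) or with Bmi1, a subunit of Polycomb repressive complex 1. Both groups therefore lack the Ink4a-Arf locus, and both were grown on type IV collagen with the growth factors HGF (50 ng/ml) and EGF (20 ng/ml). Transduced cells were purified by flow cytometry on day 28 of culture, and RNA equivalent to 10000 cells was amplified in 2 cycles. No source used here gives the vector or the promoter that drove Bmi1, and no FGF is named among the additions to the medium.

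Fibroblast growth factors bind receptor tyrosine kinases together with heparan sulfate chains, and the activated receptor passes the signal through the adaptor Frs2 and Ras to the ERK kinases. Endocrine members such as Fgf21 bind heparan sulfate weakly and need a Klotho protein as co-receptor. In the adult liver Fgfr4 with Klb restrains bile acid synthesis, and Fgf21 is secreted during fasting and stress. In the embryo, FGFs from the heart mesenchyme help to induce the liver bud. Sprouty proteins and the phosphatase Dusp6 are switched on by ERK signalling and damp it, so their RNA is widely used as a readout of the pathway.

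The sequences upstream of 3 feedback inhibitors and of Fgf21 are shown because these are the genes whose transcription is known to follow the pathway (Spry1, Spry2, Dusp6) or cellular stress (Fgf21). They are the 250 bases before the annotated start of transcription, 5′ to 3′ on the gene's strand, from RefSeq on GRCm38.p6. The windows are chr3:37639697-37639946 (plus strand) for Spry1, chr14:105896820-105897069 (minus strand) for Spry2, chr10:99262981-99263230 (plus strand) for Dusp6 and chr7:45615491-45615740 (minus strand) for Fgf21. Capitals mark matches to any of 4 motifs searched on both strands.
Spry1: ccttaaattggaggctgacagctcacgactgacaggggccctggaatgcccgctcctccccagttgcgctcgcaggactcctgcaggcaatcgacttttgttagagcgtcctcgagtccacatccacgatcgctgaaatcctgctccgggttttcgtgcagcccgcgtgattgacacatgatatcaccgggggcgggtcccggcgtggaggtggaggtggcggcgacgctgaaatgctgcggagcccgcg
Spry2: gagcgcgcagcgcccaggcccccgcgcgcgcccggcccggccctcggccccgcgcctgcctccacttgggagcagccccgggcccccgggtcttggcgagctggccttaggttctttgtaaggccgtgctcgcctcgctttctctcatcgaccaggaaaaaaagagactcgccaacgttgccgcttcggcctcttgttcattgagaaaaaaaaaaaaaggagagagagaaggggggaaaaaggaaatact
Dusp6: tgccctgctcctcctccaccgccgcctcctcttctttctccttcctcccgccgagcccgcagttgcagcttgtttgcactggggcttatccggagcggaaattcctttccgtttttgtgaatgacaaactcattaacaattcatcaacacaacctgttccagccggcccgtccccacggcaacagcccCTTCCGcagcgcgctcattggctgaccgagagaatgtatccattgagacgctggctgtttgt
Fgf21: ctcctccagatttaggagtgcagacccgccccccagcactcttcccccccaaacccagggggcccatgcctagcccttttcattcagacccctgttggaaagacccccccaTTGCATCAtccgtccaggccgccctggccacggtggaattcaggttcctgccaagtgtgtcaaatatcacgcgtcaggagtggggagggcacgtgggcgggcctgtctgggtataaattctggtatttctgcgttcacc
The motifs were CCGGAAG, bound by ETS factors such as Etv5, its shorter core CGGAAG, which every match to the longer form also holds, the amino acid response element TGATGNAA, read by Atf4, and the cAMP response element TGACGTCA. The windows searched for members covered 8 of the 10 genes, in 9 windows, and no window of Fgfr1 or Spry4 was among them. Among the 9 windows, CGGAAG was found in that of Dusp6, 62 bases before the start and on the opposite strand, and TGATGNAA in that of Fgf21, 139 bases before the start and on the opposite strand. CCGGAAG and TGACGTCA were in 0 of the 9. Of all 32851 windows of this length, 6.91% held CCGGAAG, 13.6% CGGAAG, 3.45% TGATGNAA and 1.55% TGACGTCA. A match shows the letters only.

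Some features of the whole set of arrays bear on what follows. Bmi1, the introduced gene, read 306 to 802 at its brighter probe set on arrays labelled control and 197 to 328 on those labelled Bmi1. It was thus lower where the label names it, as was its dimmer probe set, at group means of 216 and 100. No source used here gives the probe positions, and whether these probe sets read the introduced copy was not tested. Groups are therefore named by their labels throughout. The arrays numbered 1 and 2 (run 1 here) and those numbered 3 and 4 (run 2) differed in the BioC 3′ hybridisation control, at 198 to 274 against 97.0 to 119, and each run holds 2 arrays of each group. Hepatic identity was clear on every array, with Alb at 3004 to 5548, Afp at 3128 to 4733 and Hnf4a at 728 to 1719 on 1 probe set each. Background, set on each array by control probe sets for bacterial RNA, lay between 4.09 and 9.97. Signals are intensities on the authors' scale. In such bulk samples fewer cells of a type and less RNA per cell cannot be told apart.

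Between the labelled groups, 0 of the 20 tested member probe sets passed limma's test at an adjusted p of 0.05, against 0.0444% of all 27022 tested probe sets (0.0259% called higher and 0.0185% called lower). The other 4 member probe sets lay under the level filter. With the replicate number as a block, limma passed 0 of the 20 as well, against 1.78% of all (0.877% higher and 0.903% lower), and with the run as a block 0 against 0.751%. At an unadjusted p under 0.05 there were 2 without the block, where 5.02% of all tested probe sets lay, and 5 with it, where 13.6% lay. The smallest adjusted p was 0.722 without the block and 0.0569 with it. For 3 of the 20 (2 of Fgfr1 and 1 of Spry2) all 4 pairs had the higher value under the Bmi1 label, against 10.2% of all. In none of the 20 were the groups' values free of overlap, against 3.32% of all tested probe sets. Of the 20, 17 had a higher mean in the arrays labelled Bmi1, against 46.9% of all, and their median log2 difference was 0.23 against -0.02. Probe sets of a gene share their RNA, so these 17 stand for fewer genes. None of the 20 changed sign under 3 other scalings of the arrays. The plot of log2 differences shows how wide the intervals were.

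**Figure D1:**
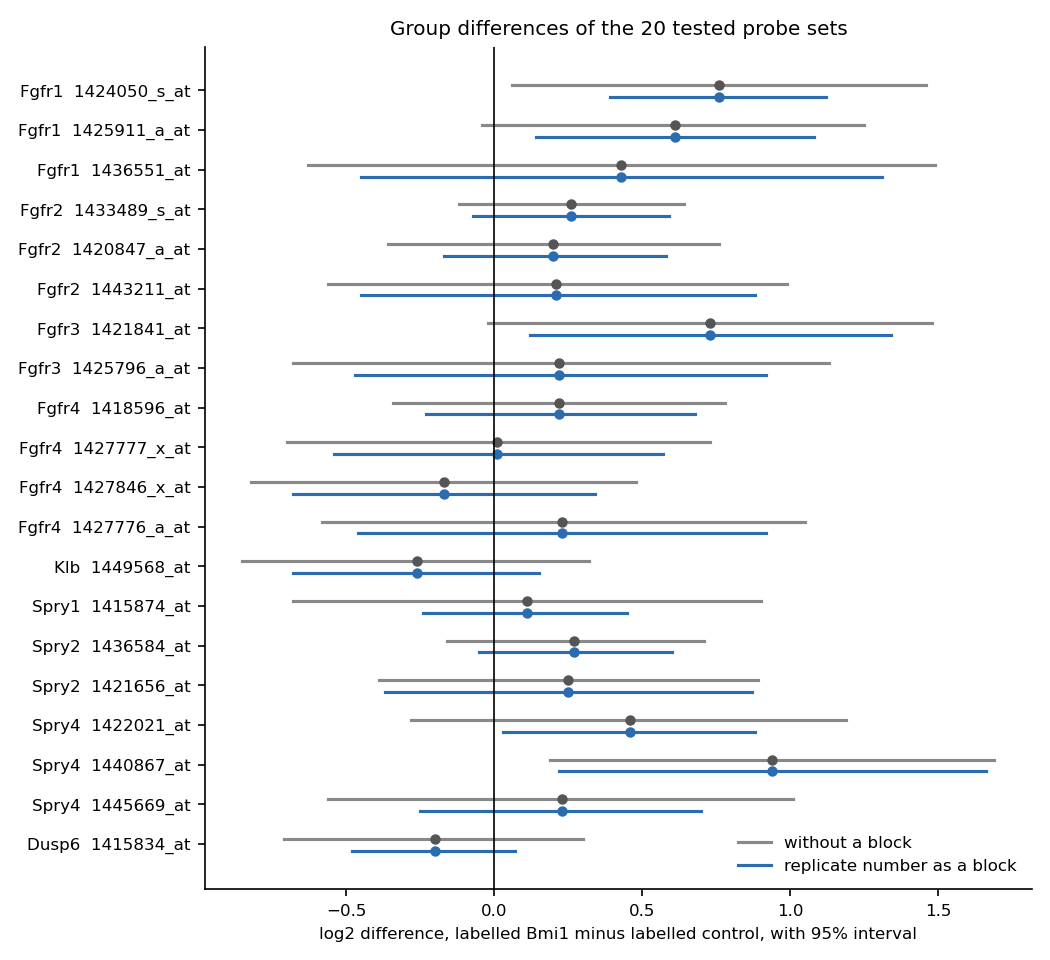
Differences in log2 signal, Bmi1 minus control as labelled, of the 20 tested probe sets, with 95% intervals from limma without a block (grey) and with the replicate number as a block (blue), 4 arrays a group. Most intervals include 0, and the largest differences are those of Spry4 1440867_at (0.94), Fgfr1 1424050_s_at (0.76) and Fgfr3 1421841_at (0.73).

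Fgfr1, the receptor known from mesenchyme, endothelium and many progenitors, had the most even difference of the receptors. Its brightest probe set, 1424050_s_at, read 69.5, 42.9, 75.1 and 103 on control arrays 1 to 4 and 118, 87.4, 153 and 149 on Bmi1 arrays 1 to 4. The array labelled Bmi1 was higher in 4 of 4 pairs, by 0.62, 0.98, 0.96 and 0.47 on the log2 scale, while the groups overlapped because control 4 read above Bmi1 2. The log2 difference was 0.76 (SE 0.32, 95% interval 0.06 to 1.46, limma adjusted p = 0.902). With the replicate block the SE was 0.16, the interval 0.39 to 1.12 and the limma adjusted p 0.0569. An exact permutation test over the 8 arrays, two-sided, gave p = 0.0857, where 0.0286 is the smallest it can give.

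The other Fgfr1 probe sets were dimmer. Probe set 1425911_a_at, which reads several transcripts of the gene, gave 17.5, 20.01, 27.6 and 36.2 on the control arrays and 43.5, 32.0, 42.2 and 45.9 on the Bmi1 arrays. Its log2 difference was 0.61 (SE 0.29 without the block, limma adjusted p = 0.236 with it). This probe set too was higher in 4 of 4 pairs. Probe set 1436551_at read 25.1 ± 14.1 and 30.9 ± 5.90 (SD, n = 4 each), with a log2 difference of 0.43, and control 2 was at 4.37, under background. Without that array the difference was -0.12. The call for Fgfr1 depended on how probe sets entered the test. With 1 probe set a gene and the replicate block Fgfr1 passed (log2 difference 0.73, SE 0.15, limma adjusted p = 0.0431), where 3.33% of 10916 genes passed, and without centring of the arrays it passed with the block at 0.0433. With its 3 probe sets averaged it gave 0.61 and an adjusted p of 0.169 with the block.

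Fgfr2, the epithelial receptor for mesenchymal ligands such as Fgf7 and Fgf10, read strongly. Its brightest probe set, 1433489_s_at, gave 629, 492, 464 and 459 on the control arrays and 578, 591, 674 and 665 on the Bmi1 arrays. Control 1 stood above the other 3 control arrays, and all 4 Bmi1 arrays lay above those 3. The log2 difference was 0.26 (SE 0.17, 95% interval -0.12 to 0.64), at -0.23 in pair 1 and 0.28, 0.50 and 0.49 in the others. The limma adjusted p was 0.491 with the block. Probe set 1420847_a_at read 81.2 ± 9.94 and 98.4 ± 24.0 (0.20), and 1443211_at read 11.1 ± 6.52 and 12.9 ± 3.80 (0.21), close to background.

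Fgfr3, a receptor known best from cartilage, varied widely from array to array. Its brighter probe set, 1421841_at, read 283, 359, 160.05 and 154 on the control arrays and 277, 476, 594 and 278 on the Bmi1 arrays. In run 2 both Bmi1 arrays lay above both controls, while in run 1 the groups overlapped. The log2 difference was 0.73 (SE 0.34 and 95% interval -0.02 to 1.48 without the block, limma adjusted p = 0.272 with it). It was 0.14 in run 1 and 1.32 in run 2. The test of that contrast between runs gave 1.18 with an unadjusted p of 0.0544 and did not pass (limma adjusted p = 1.0), and of the 20 member probe sets 0 had an interaction with an unadjusted p under 0.05. Over all tested probe sets 0 passed the interaction in limma, with 727 (2.69%) at an unadjusted p under 0.05. The dimmer probe set 1425796_a_at read 17.4 ± 10.4 and 21.3 ± 10.1 (0.22), highest on Bmi1 3 and control 2.

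Fgfr4, the receptor of mature liver, did not differ in a steady direction. Probe set 1418596_at read 148, 199, 287 and 232 on the control arrays and 329, 219, 282 and 203 on the Bmi1 arrays. Its log2 difference was 0.22 (SE 0.25 and 95% interval -0.34 to 0.78 without the block, limma adjusted p = 0.698 with it). The array labelled Bmi1 was higher in 2 of 4 pairs, by 1.02 in pair 1 and 0.16 in pair 2, and the difference was -0.06 and -0.23 in pairs 3 and 4. The ratio of 3′ to 5′ Gapdh signal, a measure of RNA integrity, was 3.10 on control 1 and 1.65 to 1.96 elsewhere. Without pair 1 the difference was -0.04, and the part of RNA quality in it was not tested. The other tested Fgfr4 probe sets, 2 of them of the _x_at kind that may cross-hybridise, gave 0.23, 0.01 and -0.17. Probe set 1427845_at was at background on 7 of 8 arrays.

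**Figure D2:**
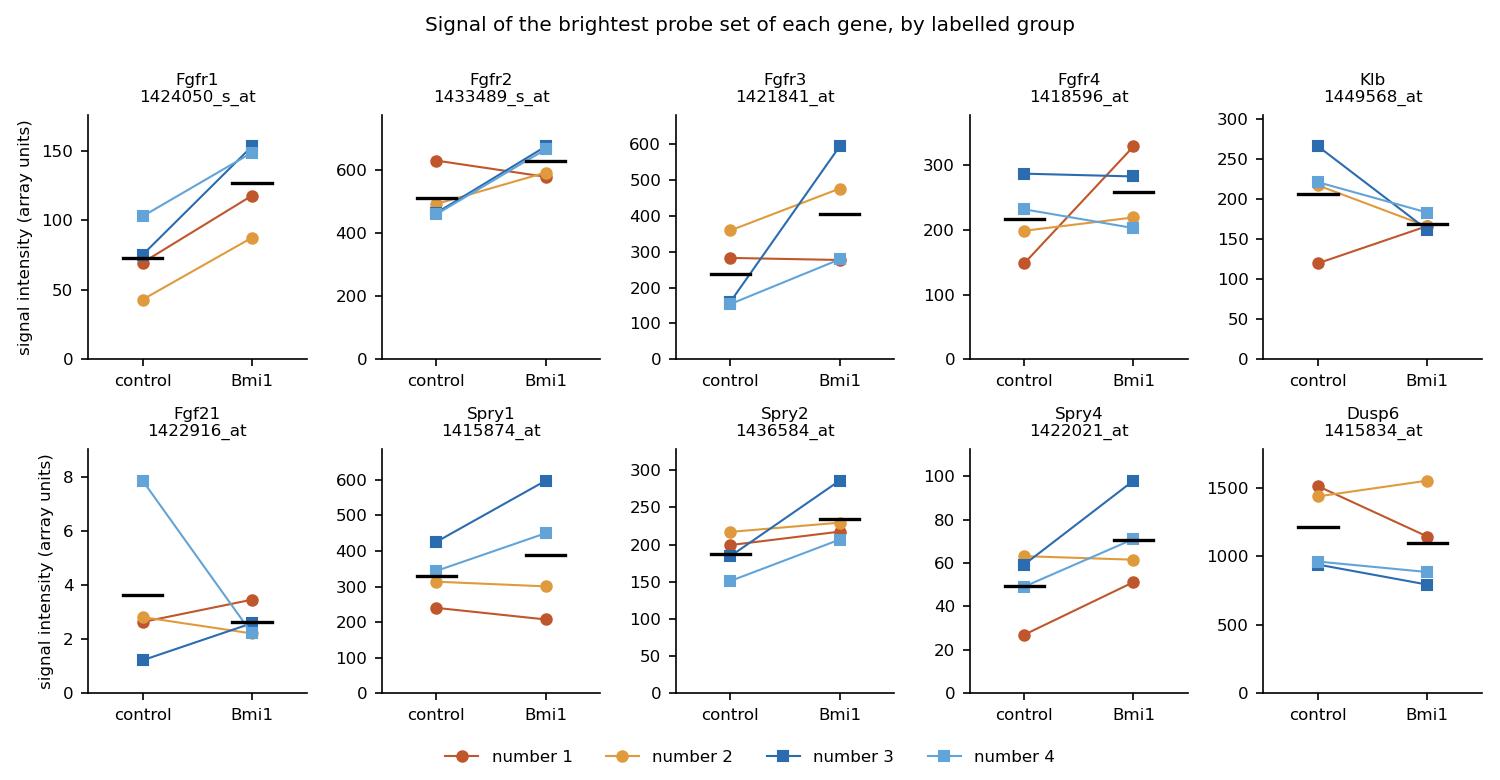
Signal intensity (linear scale from 0) of the brightest probe set of each of the 10 genes on the arrays labelled control and Bmi1. Lines join arrays of the same number, circles are run 1, squares run 2, and bars are group means. The 4 lines of Fgfr1 all rise from control to Bmi1, those of Dusp6 and Spry1 separate by run, and Fgf21 stays under 8.

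Klb, which Fgf21 and the bile acid signal Fgf15 need in order to reach a receptor, was well above background at 1 of its 2 probe sets. Probe set 1449568_at read 119.9, 217, 266 and 221 on the control arrays and 166, 166, 162 and 183 on the Bmi1 arrays. The Bmi1 arrays lay close together, with an SD of 9.51 against 61.5 in the controls, and inside the range of the controls. The log2 difference was -0.26 (SE 0.27 and 95% interval -0.85 to 0.32 without the block, limma adjusted p = 0.587 with it), lower in 3 of 4 pairs. The other Klb probe set, 1426075_at, was at background on all 8 arrays and gives no fold.

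Fgf21 was hardly detected. Its single probe set read 2.64, 2.82, 1.23 and 7.86 on the control arrays and 3.46, 2.22, 2.59 and 2.22 on the Bmi1 arrays, above background on control 4 alone. It lay under the level filter and was not tested, and with signal at background on 7 of 8 arrays no fold is given. The bases shown upstream of Fgf21 hold a match to the letters of the amino acid response element, as do 3.45% of all windows. Atf4, which reads that element, had group means of 1546 and 1353 at its brightest probe set (log2 difference -0.22, SE 0.21, limma adjusted p = 0.552 with the block). Atf4 is also controlled at translation, which arrays do not see.

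Of the Sprouty genes, which bind adaptors and Raf to block the path to ERK, Spry1 and Spry2 have no group difference beyond their spread. Spry1 read 240.3, 314, 426 and 344 on the control arrays and 208, 301, 598 and 450.2 on the Bmi1 arrays, with every array of run 2 above every array of run 1. Its log2 difference was 0.11 (SE 0.36, 95% interval -0.68 to 0.90), at -0.18 in run 1 and 0.40 in run 2. Spry2 (1436584_at) read 199, 217, 184 and 151 on the control arrays and 217, 229, 286 and 207 on the Bmi1 arrays. It was higher in 4 of 4 pairs, by 0.01, 0.10, 0.59 and 0.40. Its log2 difference was 0.27 (SE 0.19 and 95% interval -0.16 to 0.71 without the block, limma adjusted p = 0.471 with it). Its dim probe set read 10.02 ± 3.80 and 12.9 ± 2.91 (0.25).

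Spry4 held the largest difference of the 20 tested probe sets, at a dim probe set. Probe set 1440867_at read 30.6, 21.7, 44.5 and 12.1 on the control arrays and 54.7, 60.02, 40.3 and 58.4 on the Bmi1 arrays. Bmi1 3 alone fell inside the range of the controls. The log2 difference was 0.94 (SE 0.34, 95% interval 0.19 to 1.69, limma adjusted p = 0.722, and 0.230 with the block), and the exact permutation test, two-sided, gave p = 0.0571. The other tested Spry4 probe sets did not follow it array by array. Probe set 1422021_at read 27.0, 63.1, 59.3 and 49.1 and then 51.2, 61.5, 97.9 and 71.03 (0.46, SE 0.33 without the block, limma adjusted p = 0.327 with it). Probe set 1445669_at read 30.9 ± 18.2 and 35.7 ± 12.7 (0.23). The untested probe set 1422020_at read 4.80 and 4.79 as group means (-0.01), above background on 1 control array and 2 Bmi1 arrays. Averaged over the tested and untested probe sets, Spry4 differed by 0.41 (SE 0.18, limma adjusted p = 0.704, and 0.274 with the block). Averaged in the same way, Fgfr1 differed by 0.61 and Fgfr3 by 0.48.

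Dusp6, the phosphatase that removes the activating phosphates from ERK in the cytoplasm, was bright and did not share the sign of the Sprouty genes. It read 1510, 1436, 939 and 961 on the control arrays and 1143, 1551, 793 and 885 on the Bmi1 arrays, with every array of run 1 above every array of run 2. The log2 difference was -0.20 (SE 0.23 and 95% interval -0.71 to 0.30 without the block, limma adjusted p = 0.519 with it). It was -0.51, 0.13, -0.28 and -0.16 in pairs 1 to 4. The means of run 1 (-0.19) and run 2 (-0.22) were close, although the pairs of run 1 differed in sign.

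Several members differed between the runs. In limma with the run as a block, 4 of the 20 tested probe sets differed between runs, or 2 higher and 2 lower in run 2, against 26.7% of all tested probe sets (16% higher and 10.7% lower), a share near that background. Spry1 rose in run 2 by 0.89 on the log2 scale (SE 0.21, limma adjusted p = 0.0110), from a mean of 266 to 455. Fgfr1 1424050_s_at rose by 0.74 (SE 0.20, adjusted p = 0.0216 in limma), from 79.3 to 119.8. Dusp6 fell by 0.51 (SE 0.13, limma adjusted p = 0.0179), from 1410 to 894. At Spry4, 1445669_at fell by 0.81 (SE 0.23, limma adjusted p = 0.0251), while 1422021_at read 50.7 and 69.3 (0.58, 0.123), so its probe sets differ in sign. No source used here says what set the runs apart.

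**Figure D3:**
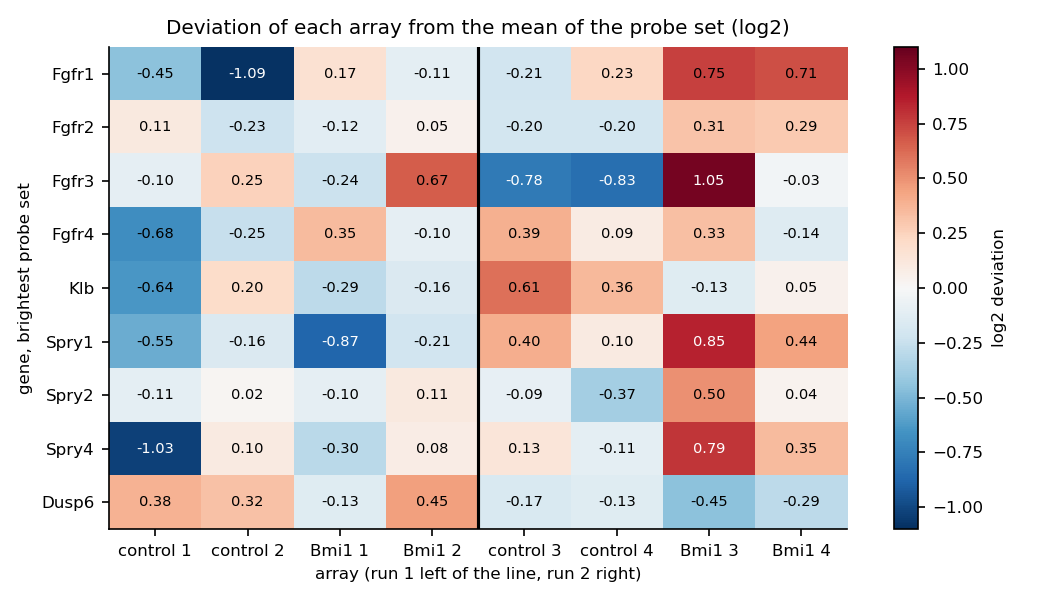
Deviation of each array from the mean over 8 arrays (log2, after centring) for the brightest probe set of the 9 genes with a tested probe set, run 1 on the left and run 2 on the right. Spry1 runs from -0.87 on Bmi1 1 to 0.85 on Bmi1 3, and Dusp6 has the opposite order of runs.

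As a description over these 8 arrays, which share the run difference, Spry2 and Fgfr3 had a Pearson correlation of 0.90, Spry1 and Spry4 (1422021_at) of 0.80, and Dusp6 and Fgfr1 of -0.78. The genes of most similar pattern were sought for the 3 members of smallest unadjusted p. For Fgfr1 they were Tigd5 (0.992), Fam131c (0.978) and the Notch ligand Jag2 (0.978), with Jag2 reading 34.1 and 86.3 as group means. For Spry4 1440867_at they were the nuclear receptor Nr5a2 (0.955), Pdik1l (0.923) and Tnik (0.918), and for Fgfr3 the kinase gene Eef2k (0.955), Syt7 (0.95) and Bbs2 (0.949). These were the highest Pearson correlations among all tested probe sets with 1 symbol outside the 10 genes, over 8 arrays.

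The other genes of the pathway were taken from 7 lists, and in limma without the block 0 of their 218 tested probe sets passed, with 18 at an unadjusted p under 0.05. Of all tested probe sets, 0.0444% passed and 5.02% lay under that unadjusted p. With the replicate block, calls came from 3 lists. Of the ligands, 6 of 21 genes had a tested probe set, 8 probe sets in all, and 0 passed with the block. Fgf13, which stays inside the cell and does not signal through the receptors, read 117, 139, 158 and 129.7 on the control arrays and 85.9, 78.3, 51.02 and 83.3 on the Bmi1 arrays, groups that did not overlap (log2 difference -0.89, SE 0.22, limma adjusted p = 0.339, and 0.0667 with the block). Fgf7, made by mesenchyme, read 30.7 ± 31.5 and 11.3 ± 10.4, high on control arrays 1 and 2. The median of the list was -0.47.

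Among co-receptors and genes of heparan sulfate, 2 of 51 probe sets passed with the block, both higher, against 0.877% of all called higher, and the list's median was 0.05. Sdc3, a syndecan that carries heparan sulfate, had group means of 74.9 ± 32.02 and 177 ± 19.1 and rose with the block (by 1.25 on the log2 scale, SE 0.21, limma adjusted p = 0.0260, and 0.232 without). Its other tested probe set read 24.2 and 28.6 as group means (0.04) and did not pass. Sulf2, which trims sulfates from these chains, rose with the block from 73.8 ± 18.3 to 166 ± 48.6 at 1430388_a_at (1.06, SE 0.21, limma adjusted p = 0.0414, and 0.397 without). Its 2 other tested probe sets gave 0.68 and 0.03 and did not pass. Without pair 1, 1 probe set of this list passed with the block, and with the run as a block Sdc3 passed (limma adjusted p = 0.0317) and Sulf2 did not (0.0565).

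Adaptors and the Ras-ERK cascade held 33 and 28 tested probe sets, of which 0 passed with the block in limma, with medians of -0.07 and -0.09. Cblb, a ligase that removes active receptors, read 143 ± 16.9 and 104 ± 35.3 (-0.53), and Plcg1, a direct substrate of the receptors, 14.4 ± 5.92 and 8.17 ± 2.63 at a dim probe set (-0.62) but 288 and 286.5 at its brighter one (-0.06). Rasa1, which switches Ras off, read 26.3 ± 15.3 and 14.0 ± 9.39 at its dimmest tested probe set (-0.80). Its brighter tested probe sets read 199 and 163 (-0.24) and 119.7 and 83.1 (-0.48) as group means. Ksr1, a scaffold of the cascade, read 30.2 ± 9.17 and 44.03 ± 11.3 at its brightest probe set (0.46). The other Ksr1 probe sets gave 0.03 and -0.53. Of the other feedback inhibitors 0 of 36 probe sets passed with the block, and the median was -0.09. Il17rd, the inhibitor also called Sef, read 122, 88.6, 77.1 and 118 on the control arrays and 122, 269.7, 232 and 260.3 on the Bmi1 arrays (1.01, SE 0.31, limma adjusted p = 0.523, and 0.113 with the block). Spred1, a relative of the Sproutys, read 33.01 ± 8.68 and 20.6 ± 3.25 at its dim probe set 1428777_at (-0.62, adjusted p = 0.225 with the block, limma), while its brightest read 363 and 370 as group means (0.02) and the other 4 gave -0.27 to 0.05.

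Of the ERK-induced factors and targets, 4 of 30 probe sets passed with the block, all higher, against 0.877% of all called higher, while the list's median was -0.01. The same number passed with the run as a block. They stand for 2 genes, Etv5 and Ccnd1. Without pair 1, 4 of the list passed with the block, 4 of them shared with the full set. Etv5, an ETS factor induced by FGF signalling, read 35.9, 44.4, 72.5 and 63.8 on the control arrays and 103, 81.7, 205 and 135 on the Bmi1 arrays, so the groups did not overlap. It rose with the block (1.14, SE 0.17, limma adjusted p = 0.0151, and 0.546 without), and its log2 differences in pairs 1 to 4 were 1.32, 0.84, 1.42 and 1.0. Its 2 other tested probe sets, at 12.3 and 14.3 and at 6.68 and 18.7 as group means, did not pass. Ccnd1 (1417419_at), a target of many mitogens, read 127, 165, 264 and 227 on the control arrays and 313, 317, 741 and 414 on the Bmi1 arrays (1.09, SE 0.14, limma adjusted p = 0.0105 with the block). Dusp6 and the Sproutys, induced by the same kinases, did not pass in this model, as given above, and the difference between Etv5 and these genes was not tested.

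Of the regulators and targets of the Fgf21 and Fgfr4-Klb axis, 31 of 33 probe sets had a lower mean in the arrays labelled Bmi1, with a median of -0.54, against 46.9% of all tested probe sets with a higher mean, and 5 passed with the block, all lower, against 0.903% of all called lower. With the run as a block 1 passed, Slc10a1 1424898_at. Without pair 1, 1 probe set of the list passed. Slc10a1, the bile acid uptake carrier, had group means of 211 ± 109 and 65.5 ± 67.4 and fell with the block (log2 change -2.06, SE 0.32, limma adjusted p = 0.0181). Nr1h4, the bile acid receptor, fell from 194 ± 94.4 to 91.5 ± 69.4 (-1.35, SE 0.24, 0.0317) and Insig2, which holds back sterol synthesis, from 446 ± 225 to 272 ± 125 (-0.71, SE 0.14, 0.0439), both in limma with the block. With the run as a block their limma adjusted p was 0.0521 and 0.0847. Without the block limma gave these 3 probe sets adjusted p-values of 0.514, 0.857 and 1.0. This list holds liver genes, and the hepatocyte markers were lower too, at 26 of 30 probe sets with a median of -0.30. Of these 30, limma with the replicate block called 5 lower and 1 higher, against 0.903% and 0.877% of all. With the run as a block 4 passed, against 0.751% of all.

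**Figure D4:**
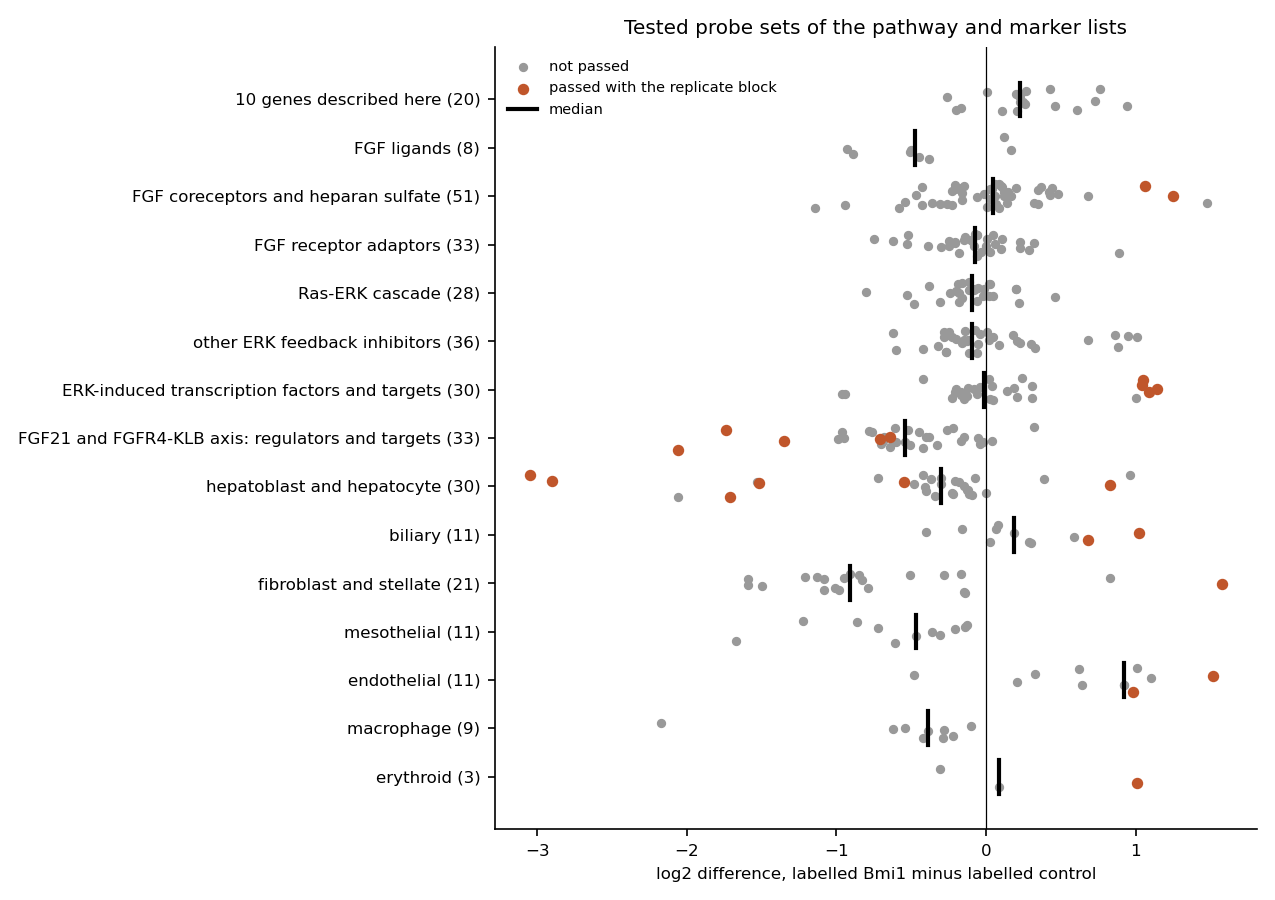
Differences in log2 signal, Bmi1 minus control as labelled, of each tested probe set of the 10 genes, of the 7 pathway lists and of 7 marker lists, with the number of probe sets in brackets. Orange points passed limma with the replicate block, black bars are medians, and vertical scatter has no meaning. The 20 member probe sets have a median of 0.23 and no orange point.

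Markers of other cells also differed in mean between the labelled groups. Since Fgfr1 is also made by fibroblasts and endothelium, their markers are given beside it. Of all tested probe sets 46.9% had a higher mean in the arrays labelled Bmi1. Without the block 0 probe sets of these lists passed limma. With the replicate block 1 fibroblast and stellate, 2 endothelial, 2 biliary and 1 erythroid probe set passed, all higher. Of all tested probe sets 0.877% were called higher. The fibroblast and stellate call ran against the direction of its list. With the run as a block 1 endothelial and 1 biliary probe set passed. Of fibroblast and stellate probe sets 19 of 21 had a lower mean in the arrays labelled Bmi1 (median -0.91, and -0.05 without pair 1), with summed signals of 9157 to 23942 on the control arrays and 7091 to 13729 on the Bmi1 arrays and no marker gene at background throughout. Of endothelial probe sets 10 of 11 had a higher mean there (median 0.92, and 0.67 without pair 1). These belong to 5 genes, mainly Flt1 and Egfl7, and summed signals were 337 to 598 and 774 to 1039, while Pecam1, Tek, Tie1 and Erg were at background on all 8 arrays. Biliary probe sets were higher at 9 of 11 (median 0.19, sums 7331 to 9165 and 9613 to 10728, Muc1 at background throughout). Mesothelial probe sets were lower at 11 of 11 (sums 259 to 1272 and 131 to 429.5), with pair medians from -1.36 in pair 1 to 0.63 in pair 3. Macrophage probe sets were lower at 9 of 9, with pair medians from -1.18 in pair 2 to 0.05 in pairs 1 and 4 (sums 969 to 2984 and 783 to 2699, Cd163 at background throughout). Erythroid probe sets were higher at 2 of 3 (sums 47.7 to 94.7 and 75.05 to 111, Alas2 at background throughout). The part of these cells in the values of Fgfr1 and of the other members was not tested.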

How the data were processed

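The deposited table holds probe set intensities on a linear scale for 8 arrays, and no source used here names the software that made them. In the authors' values each array has a mean of 100 once 2% is trimmed from both ends. Gene symbols follow the platform's annotation, with current names looked up by gene identifier: 34945 probe sets had 1 symbol, 932 several, 9160 are unnamed here and 64 are controls. Signals were put on the scale log2(value + 3.78), where 3.78 is the median of the table divided by 4, which understates the folds of dim probe sets. Tests used probe sets whose mean level reached the 40th percentile (27022 of 45037), and arrays were centred on the median of these, which differed by 0.25 between arrays. The comparison used limma 3.58.1 (R 4.3.3; lmFit and eBayes with trend), and two-sided p-values were adjusted by Benjamini-Hochberg across all tested probe sets. Intervals are at 95%. The models without a block and with the replicate block were run on simulated data that had a replicate effect but no run effect. There they returned the added differences near their true size. False calls under a run effect were not examined. Background is the 95th percentile of 27 Bacillus control probe sets on each array. The number of arrays limits the precision.

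Same-numbered arrays deviated together from their group means (correlations of 0.56, 0.33, 0.47 and 0.64). Differently numbered arrays of the same run did so too (0.16 to 0.40), and those of different runs did not (-0.62 to -0.15). Deviations cancel within each group, so the negative values follow in part from the positive ones. Bmi1 2 correlated more with control 1 (0.40) than with control 2 (0.33), so for it these values do not tell the pair from the shared run. The numbers were taken to pair the arrays, which the labels describe as 4 independent experiments. The main model has no block, and blocked values are given beside it. All probe sets of the 10 genes are described, some without their number. From each pathway list up to 4 genes called with or without the block were named by size of difference, or else the 2 of smallest p. The members and lists were chosen with earlier results of these data known.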

Additional observations from a re-analysis of the deposited data

Results flagged for a closer look

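Dixon's test was applied to 40 groups of 4 arrays, and in 2 of them a single array stood apart, where chance marks about 1 in 20. At Fgfr1 1436551_at control 2 was the lowest control array, with a gap of 0.902 of the group's range. At Fgfr2 1433489_s_at control 1 was the highest control array, with a gap of 0.886 of the range.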

How the results depend on the processing

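The count of member probe sets passing limma was 0 in the main model and stayed 0 under every planned setting, with 0 to 5 at an unadjusted p under 0.05. It was 1 (Fgfr1) in 2 settings chosen after seeing the data, 1 probe set a gene with the replicate block and no centring with the replicate block. Leaving out each array, or each pair with the block, gave 0 to 0. The interaction count was 0 throughout. Over all tested probe sets limma called 12 in the main model, 481 with the replicate block, 203 with the run block, 36 with array weights, 7 at the lowest pseudocount, 1 with the filter at the 60th percentile and 0 within run 1 or run 2 alone (1440 and 2098 at an unadjusted p under 0.05). Leaving out 1 array gave 0 to 14, with 2 without control 1, 4 without Bmi1 1, 14 without control 4, and 0 without control 2, control 3, Bmi1 2, Bmi1 3 or Bmi1 4 (1072, 1318, 1395, 947 and 1107 unadjusted).

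The differences that changed sign were all uncalled, and Fgfr1 1436551_at, at 0.43, had the largest of them. Within run 1 these were Fgfr2 1443211_at (-0.11), Fgfr3 1425796_a_at (-0.16), Fgfr4 1427846_x_at (0.14) and Spry1 1415874_at (-0.18), and within run 2 Fgfr1 1436551_at (-0.21) and Fgfr4 1418596_at (-0.14), Fgfr4 1427777_x_at (-0.40) and Fgfr4 1427776_a_at (-0.12). Array weights turned Fgfr4 1418596_at (-0.091), Fgfr4 1427777_x_at (-0.36, and -0.11 with the block), Fgfr4 1427776_a_at (-0.0751) and Spry1 1415874_at (-0.0307). The higher pseudocount (-0.00665) and the 60th percentile filter (-0.00681) turned Fgfr4 1427777_x_at, with the same values with the replicate block. Without pair 1, the differences were -0.043, -0.25 and -0.15 at Fgfr4 1418596_at, Fgfr4 1427777_x_at and Fgfr4 1427776_a_at. Leaving out 1 array or pair gave ranges of -0.12 to 0.74 for Fgfr1 1436551_at, -0.13 to 0.50 for Fgfr3 1425796_a_at, -0.043 to 0.39 for Fgfr4 1418596_at, -0.25 to 0.25 for Fgfr4 1427777_x_at, -0.15 to 0.42 for Fgfr4 1427776_a_at and -0.16 to 0.41 for Spry1 1415874_at. The cause of these changes was not tested. Signals near background, at Fgf21 above all, limit what can be said of the dim probe sets.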
